A study of Homo sapiens with 2 samples.

Results

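The ATP-binding cassette (ABC) superfamily was examined in the human acute myeloid leukaemia line HL60 and in its cytarabine-resistant derivative R-HL60. The members were genes whose name on the array begins with ABC, a letter from A to G and a digit, without antisense names. Reported here are 47 of these genes on 71 probes, out of 43270 genes and transcripts on 58201 probes, and 4 of the 47 were pseudogenes in the RefSeq table. The parental group was untreated HL60. The R-HL60 group was a line obtained from HL60 by long growth in rising doses of cytarabine, a deoxycytidine analogue that stops DNA synthesis after phosphorylation in the cell. Both lines were kept in the same serum-containing medium. Each line was measured on 1 one-colour Agilent array, so the cell line and the array cannot be told apart and no difference has a test. Whether cytarabine was present when the cells were harvested, and whether R-HL60 is 1 clone, is not stated in the labels.

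ABC proteins bind and hydrolyse ATP in paired nucleotide-binding domains. In most of them this powers the transport of a substrate across a membrane. Subfamily A moves mainly lipids, B drugs, bile components, peptides and mitochondrial substrates, C organic anions and nucleotide analogues, D fatty acids and cobalamin, and G sterols and drugs. Proteins of subfamilies E and F have no membrane domains and act in translation. In leukaemia the family is best known for drug efflux through ABCB1, ABCC1 and ABCG2, and ABCC4, ABCC5 and ABCC11 can export nucleotide analogues.

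Arrays were scaled to their 75th percentile, which was 292 on the HL60 and 294 on the R-HL60 array. The median signal of each array, 30.7 and 32.8, served as the floor below which a signal was not counted as measured. A gene was represented by its brightest probe, and log2 differences are R-HL60 minus HL60. All 6 promyelocytic markers were above the floor on both arrays, with a summed signal of 718905 on HL60 and 637214 on R-HL60. All 6 were lower on R-HL60, with a median log2 difference of -0.18, where 55.8% of all genes were below 0. MPO and CTSG made up most of this sum, while ELANE was 4.59-fold lower on R-HL60 and PRTN3 differed by -0.80 on the log2 scale. All 3 fibroblast markers were below the floor. The 3 T cell markers summed to 4057 and 6316, a sum carried by CD3D (0.65), with CD3E at -0.15 and CD2 at -0.36. The 3 B cell markers summed to 2724 and 3020, the 2 erythroid markers on the array to 968 and 1006, and the 3 epithelial markers, of which EPCAM was below the floor, to 1628 and 1804. The part of these markers in the values below was not tested. Probes of the same gene gave differences with a pooled SD of 0.19 over 4724 genes, from 0.35 in the second of 10 brightness bins to 0.08 in the brightest. This spread leaves out the variation between cultures and between arrays.

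Measured ABC genes were found in every subfamily, while the classical drug pump ABCB1 lay below the floor on both lines. Of the 47 genes, 25 were above the floor on both arrays, 21 were below it on both, and ABCG5 was above it on the HL60 array only. The shares above and below on both arrays, 53.2% and 44.7%, were close to those of all 43270 genes, 50.5% and 45.6%, which a floor at the array median largely fixes. Subfamilies E and F were measured in full, with 1 of 1 and 3 of 3 genes above the floor on both arrays. In subfamily A this held for 7 of 14 genes, in B for 4 of 8, in C for 6 of 13, in D for 2 of 3 and in G for 2 of 5. The genes below the floor included the drug pump ABCB1, at 11.2 on HL60 and 10.6 on R-HL60, with a second probe at 2.62 and 1.78. They also included the nucleotide analogue exporter ABCC11, at 4.83 and 3.33, and the organic anion exporter ABCC3, at 1.98 and 2.18. No fold is given for a gene below the floor on both arrays. The others were ABCA4, ABCA5, ABCA6, ABCA8, ABCA12, ABCA13 and the pseudogene ABCA17P of subfamily A, the bile transporters ABCB4 and ABCB11 and the transporter ABCB5 of subfamily B, and the sulfonylurea receptors ABCC8 and ABCC9 with ABCC12, ABCC13 and ABCC6P1 of subfamily C. The peroxisomal ABCD2 and the sterol transporters ABCG4 and ABCG8 completed them.

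**Figure D1:**
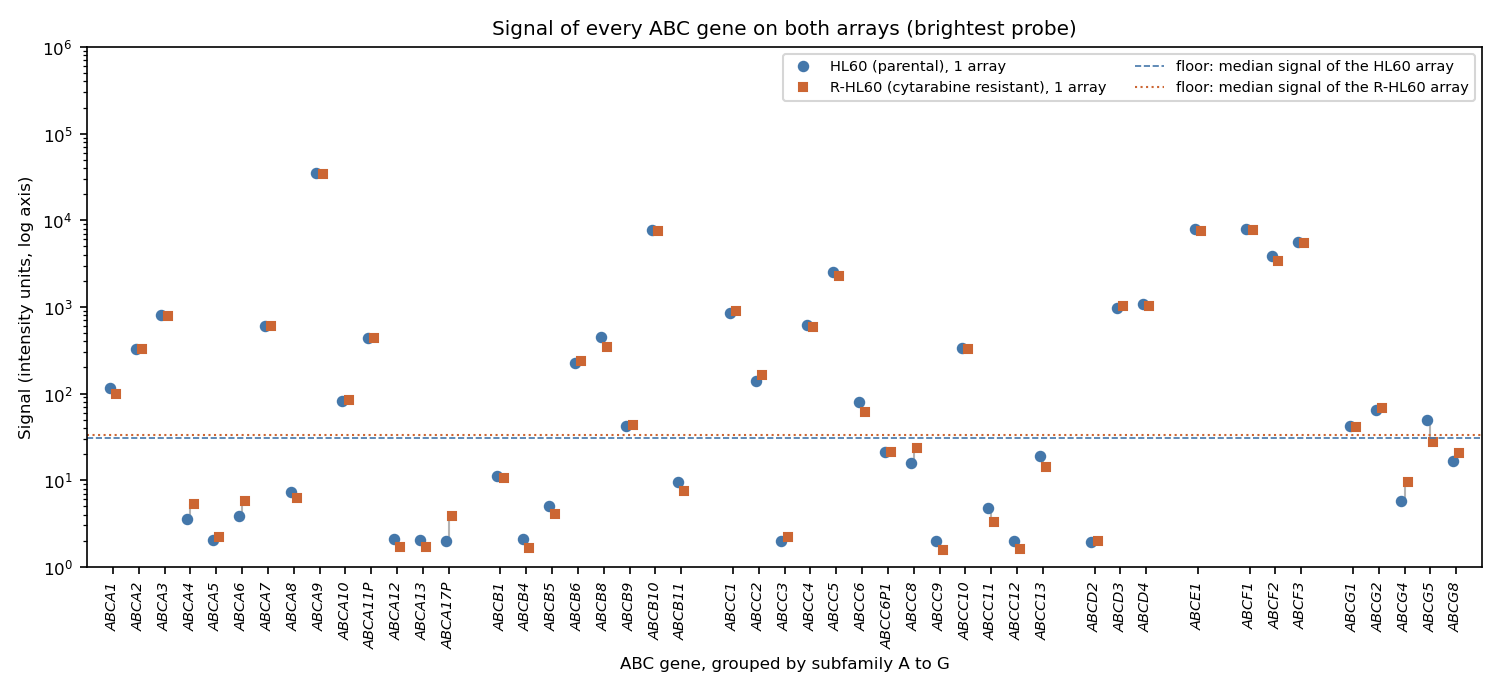
Signal of the 47 ABC genes (brightest probe, intensity units on a log axis) on the HL60 array (circles) and the R-HL60 array (squares), with the floor of each array as a dashed or dotted line. For 25 genes both symbols lie above the floors, for 21 both lie below, and for ABCG5 they lie on either side.

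Genes above the floor tended to have promoters rich in CpG dinucleotides. RefSeq promoters of 300 bases (GRCh38.p14, 250 before to 50 after the start) were at hand for 35 of the 47 genes, and counts were averaged over the starts listed for a gene. The median was 26.5 CpG over the 22 ABC genes above the floor on both arrays and 6.83 over the 12 below it. Among all genes on the array the medians were 24 over 11466 genes and 9 over 5027 genes, so the split was not particular to ABC genes. Exceptions stood on both sides. ABCA9, ABCC2 and ABCA10 were above the floor with 1, 1 and 2 CpG, and ABCA5 and ABCG4 were below it with 45 and 27. Promoters of 4 genes are shown, with each CpG in capitals: ABCG5 and ABCB8, which were among the lowest on R-HL60 relative to HL60, and the efflux genes ABCC2 and ABCC4, which held the fewest and the most CpG among measured members of subfamily C with a listed promoter. They lie at chr2:43838790-43839089 (minus strand), chr7:151028200-151028499 (plus), chr10:99782390-99782689 (plus) and chr13:95301402-95301701 (minus), in that order.
ABCG5: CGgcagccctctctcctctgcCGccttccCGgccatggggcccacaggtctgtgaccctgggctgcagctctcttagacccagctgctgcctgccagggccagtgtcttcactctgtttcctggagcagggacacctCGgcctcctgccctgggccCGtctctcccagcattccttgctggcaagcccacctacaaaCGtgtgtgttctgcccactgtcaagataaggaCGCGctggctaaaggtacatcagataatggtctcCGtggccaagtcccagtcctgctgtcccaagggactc
ABCB8: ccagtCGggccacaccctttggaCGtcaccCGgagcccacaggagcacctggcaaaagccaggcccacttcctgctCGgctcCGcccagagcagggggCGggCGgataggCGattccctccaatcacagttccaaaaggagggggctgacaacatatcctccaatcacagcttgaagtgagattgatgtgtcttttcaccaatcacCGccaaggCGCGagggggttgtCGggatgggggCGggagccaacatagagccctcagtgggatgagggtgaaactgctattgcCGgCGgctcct
ABCC2: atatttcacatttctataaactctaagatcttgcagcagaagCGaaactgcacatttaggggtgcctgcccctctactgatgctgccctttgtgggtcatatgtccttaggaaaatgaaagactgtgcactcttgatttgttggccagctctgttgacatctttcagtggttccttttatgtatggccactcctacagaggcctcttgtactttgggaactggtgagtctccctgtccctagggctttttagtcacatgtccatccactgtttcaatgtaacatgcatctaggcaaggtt
ABCC4: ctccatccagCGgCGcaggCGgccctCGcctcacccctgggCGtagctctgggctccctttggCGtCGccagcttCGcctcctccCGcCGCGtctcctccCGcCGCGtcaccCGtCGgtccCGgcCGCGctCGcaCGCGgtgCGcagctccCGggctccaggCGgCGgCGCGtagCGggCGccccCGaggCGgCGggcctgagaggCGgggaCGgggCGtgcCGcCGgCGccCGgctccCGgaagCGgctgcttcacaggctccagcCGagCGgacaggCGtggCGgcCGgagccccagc

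These windows held 9, 15, 1 and 47 CpG. On either strand, the GC box letters GGGCGG were found in promoters of 21 of the 35 genes and in 45.0% of all 35116 promoters listed. The TATA box letters TATAAA were found for 8 of the 35 genes and in 11.5% of all promoters. Among the 4 shown, ABCB8 held the GC box letters and ABCC2 the TATA box letters. A gene with several starts was counted when any of them held the letters. Counted by gene in the same way, the GC box letters were found for 72.7% of ABC genes and 70.7% of all genes above the floor on both arrays, and for 41.7% and 42.5% of those below it. The TATA box letters were found for 27.3% (6 of 22) and 9.67% above the floor, and for 16.7% (2 of 12) and 18.2% below it. A match or its lack describes these letters in this window only.

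**Figure D2:**
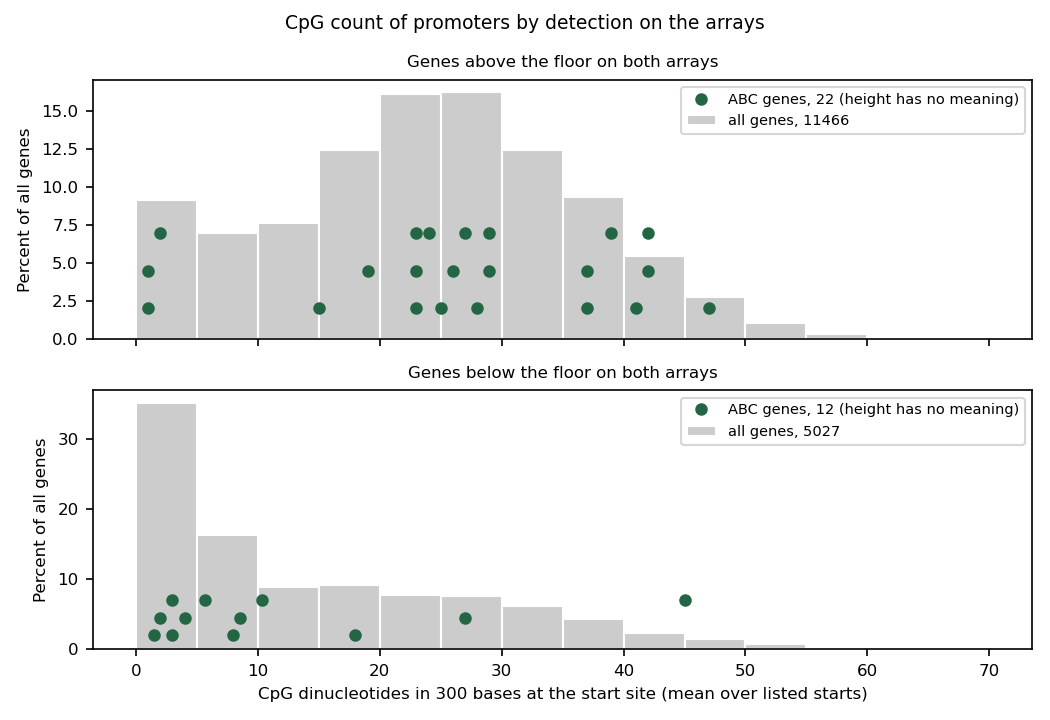
CpG dinucleotides per 300-base promoter (x axis) for ABC genes (points, drawn at arbitrary heights) and, as grey bars in percent, all genes, split into genes above the floor on both arrays (top) and below it on both (bottom). The ABC medians were 26.5 above and 6.83 below the floor.

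The measured ABC genes were nearly equal on both arrays. Of the 26 genes above the floor on at least 1 array, 0 reached 2-fold in either direction on R-HL60. Over all 23531 genes measured in the same way, 1.08% reached 2-fold, with 0.786% higher and 0.297% lower on R-HL60, so a count of 0 among 26 does not set the family apart. The median log2 difference was -0.05 against -0.03 over all genes. There were 17 ABC genes below 0, ABCG5 among them by its bound, and 9 above, where 55.8% of all genes were below 0. In all, 23 of the 26 (88.5%) were within 1.2-fold, against 76.0% of all genes. The differences of the 25 genes above the floor on both arrays had an SD of 0.14 over genes, against 0.29 over the 21839 such genes of the array.

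The differences were of the size that separate probes of a gene show. Among the 25 genes, 6 had a difference larger than the SD between probes in their brightness bin, against 39.0% of all genes. These were ABCC2, with a higher signal on R-HL60, and ABCB8, ABCC5, ABCC6, ABCE1 and ABCF2, with lower ones. Of the 9 ABC genes with several probes above the floor on both arrays, the probes had the same sign in 4 and opposite signs in 5. The range between probes of a gene was 0.31 in the median, and it was smallest for ABCE1 at 0.0035 and largest for ABCA1 at 0.76. The pooled SD between probes of these 9 genes was 0.25, against 0.19 over all 4724 genes with several such probes.

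**Figure D3:**
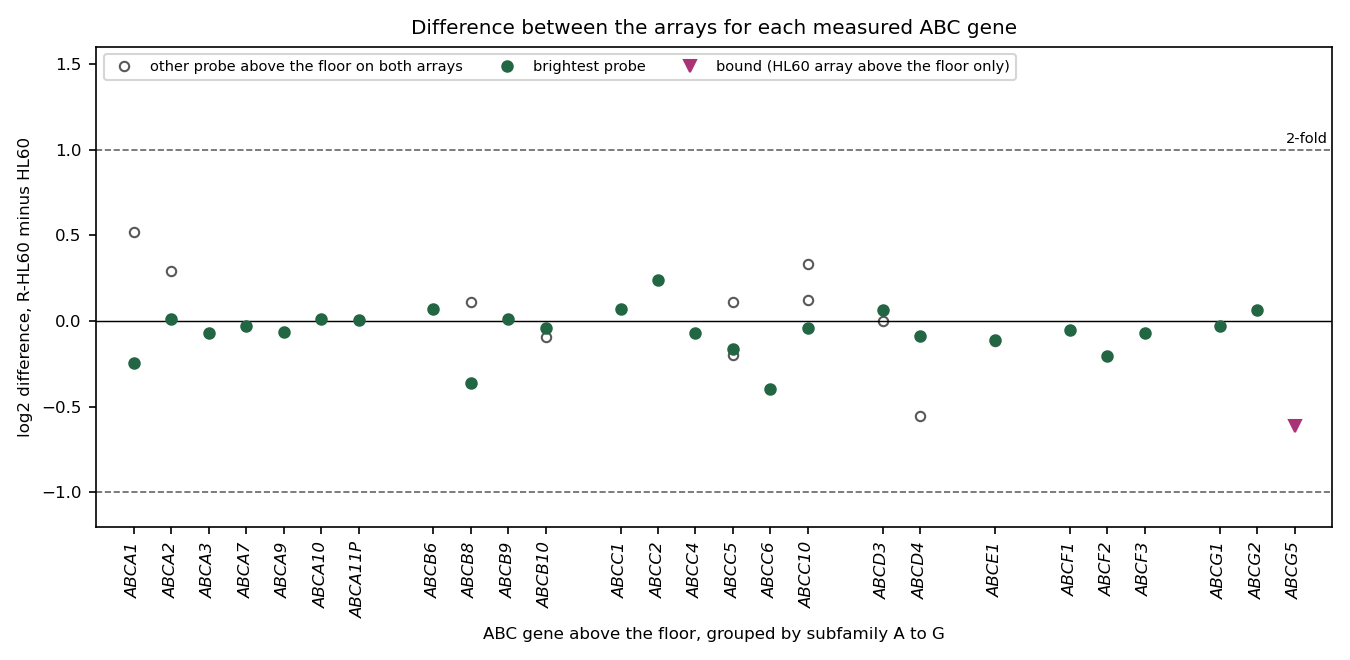
log2 difference between the arrays (R-HL60 minus HL60) for the 26 ABC genes above the floor on at least 1 array, by subfamily. Filled points are the brightest probe, open points other probes above the floor on both arrays and the triangle the bound for ABCG5; dashed lines mark 2-fold, which no filled point or triangle reaches.

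**Figure D4:**
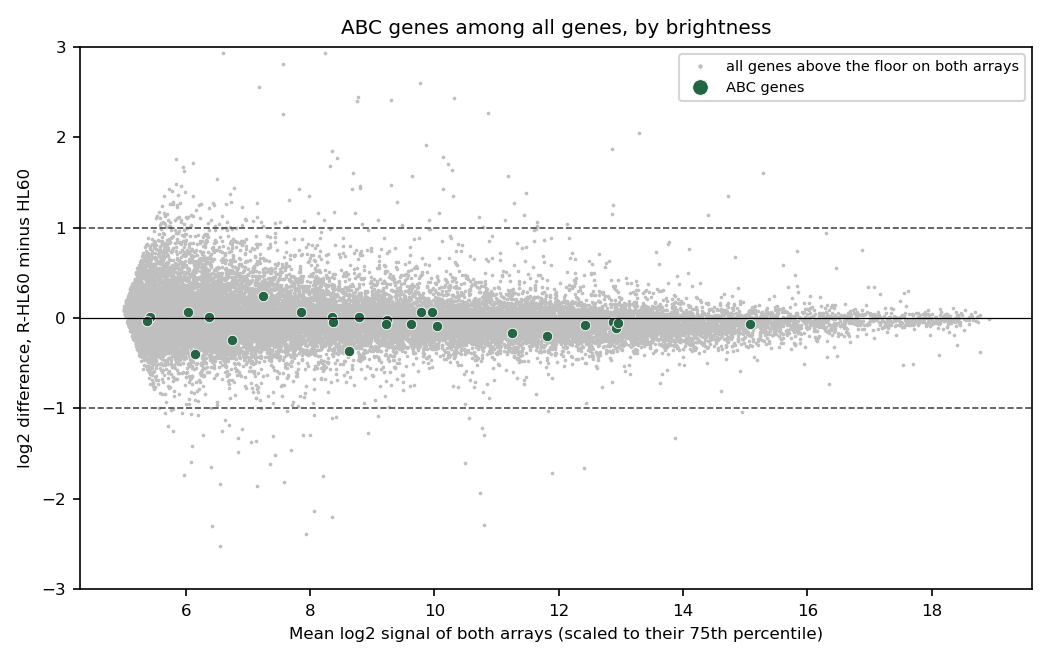
log2 difference (R-HL60 minus HL60) against mean log2 signal for genes above the floor on both arrays (grey) and the 25 ABC genes among them (green). Genes not reported here are left out. Dashed lines mark 2-fold, and 12 genes lie beyond the axis limits of 3. The ABC points run from -0.40 for ABCC6 to 0.24 for ABCC2.

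Subfamily A, whose products move cholesterol, phospholipids and retinoids, had a median difference of -0.03 over 7 measured genes. ABCA1, which loads cellular cholesterol onto apolipoproteins, had a signal of 116 on HL60 and 98.5 on R-HL60 on its brighter probe, a log2 difference of -0.24. Its other probe went the opposite way, from 57.3 to 82.6 (0.52), so the 2 probes gave no common direction. ABCA2, a transporter of endosomes and lysosomes, stood at 325 and 330 (0.01), with a second probe at 0.29. ABCA3, which fills lamellar bodies with surfactant lipid, stood at 807 and 775 (-0.07). ABCA7, a phospholipid transporter known from Alzheimer's disease genetics, stood at 608 and 600 (-0.03). The pseudogene ABCA11P stood at 438 and 443 (0.01). All of these except the probes of ABCA1 and the second probe of ABCA2 lay within 0.07 of 0.

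On chromosome 17 the genes ABCA8, ABCA9, ABCA6, ABCA10 and ABCA5 follow each other in the RefSeq table. ABCA9 had signals of 35081 and 33752 (-0.06), and ABCA10 had 82.4 and 83.5 (0.01). ABCA8, ABCA6 and ABCA5, the other genes of this row, lay below the floor on both lines, with brightest probes at 7.21 and 6.19, 3.83 and 5.76, and 2.02 and 2.22. ABCA9 and ABCA10 rested on 1 probe each, and brightness cannot be compared between probes as an amount of RNA. Probe sequences were not at hand, so whether the ABCA9 probe also binds other transcripts was not tested.

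Subfamily B, taken by gene name, had a median of -0.01 over 4 measured genes, and 3 of these act in mitochondria. ABCB10, which supports haem synthesis, had signals of 7618 and 7445 (-0.04), with a second probe at -0.09. ABCB6, linked to porphyrin transport, had 226 and 239 (0.07). ABCB8, a protein of the inner membrane, had 446 and 349, a log2 difference of -0.36 or 1.29-fold lower, but its other probe had 139 and 151 (0.11). The mean of both probes was -0.13. ABCB9, a peptide transporter of lysosomes, was close to the floor at 42.7 and 43.4 (0.01).

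Subfamily C holds most of the efflux pumps tied to anticancer drugs, and its 6 measured genes had a median of -0.06. ABCC1, an exporter of glutathione conjugates and drugs, had signals of 858 and 906 (0.07). ABCC4, an exporter of cyclic nucleotides and nucleotide analogues, had 612 and 586 (-0.07). ABCC5, which has a similar range of substrates, had 2558 and 2295 (-0.16) on its brightest probe, with 0.11 and -0.20 on the others. ABCC10 had 336 and 328 (-0.04), with 0.33 and 0.12 on dimmer probes. For ABCC5 and ABCC10 the probes thus lay on both sides of 0.

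ABCC2, known from the bile canaliculus and from drug efflux, had signals of 138 and 164 (0.24, 1.18-fold higher), the largest positive difference among the members by brightest probes. Its second probe was below the floor. ABCC6, an ATP release protein of liver and kidney that restrains calcification, had 80.9 and 61.8 (-0.40, 1.32-fold lower). A second ABCC6 probe, above the floor on HL60 only, had 36.3 and 31.3, and the remaining 2 were below the floor on both arrays, so the mean over all 4 probes, at 0.30, rests in part on unmeasured signals. ABCC6 has near-identical pseudogene copies, among them ABCC6P1 (21.0 on both arrays, below the floor), and its probes may not separate them. ABCC1 and ABCC6 follow each other on chromosome 16 and had differences of 0.07 and -0.40.

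Subfamily D had a median of -0.01 over 2 measured genes. ABCD3, an importer of branched-chain fatty acids, had signals of 966 and 1017 (0.07), with a second probe at -0.0017. ABCD4, which takes part in the release of cobalamin from lysosomes, had 1089 and 1030 (-0.09) on its brightest probe, -0.55 on a dimmer one and signals of 29.5 and 42.6 on another that was above the floor on R-HL60 only.

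Subfamilies E and F act on ribosomes. ABCE1, which splits ribosomes for recycling, had signals of 8027 and 7481 (-0.11), and its second probe gave the same value to 2 decimals (-0.11). ABCF1, a factor of translation initiation, had 8014 and 7765 (-0.05). ABCF2 had 3834 and 3355 (-0.20, 1.15-fold lower) and ABCF3 had 5640 and 5399 (-0.07). All 4 were below 0, but in the brightness bins that hold these genes the median of all genes was also -0.06 to -0.07, and ABCF1 and ABCF3 came out at 0.02 and 0.00 with the authors' normalized values.

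Subfamily G had a median of -0.03 over 3 measured genes and held the lowest bound of the family. ABCG5, which forms with ABCG8 a pump that returns plant sterols and cholesterol to bile and gut, had a signal of 49.9 on HL60 and 27.8 on R-HL60, below the floor there. ABCG5 was at least 1.53-fold lower on R-HL60, the only member by name reported here that was past 1.5-fold. Of all genes, 1.38% were at least 1.5-fold lower and 4.91% at least 1.5-fold different in either direction. With an offset of 50 units added to each signal the bound was -0.27 on the log2 scale, so it rests on dim signals. ABCG8 was below the floor on both arrays, at 16.6 and 20.5. The genes ABCG5 and ABCG8 are transcribed away from each other, and their promoter windows share 231 of 300 bases, which are therefore part of the ABCG5 sequence above. ABCG2, a drug pump of stem and progenitor cells, was at 64.2 and 67.5 (0.06), and ABCG1, a cholesterol exporter, at 41.8 and 41.1 (-0.03), both dim.

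Grouped by role, no list of ABC genes held a gene past 2-fold. The drug efflux list had 7 of 10 genes above the floor, 3 above and 4 below 0, and a median of -0.04. The sterol and phospholipid list had 6 of 11 measured, 1 above 0 and 5 below, with a median of -0.05. The mitochondrial list had 3 of 3 measured and a median of -0.04, the peroxisomal and lysosomal list 3 of 4 and 0.01, and the ribosome and translation list 4 of 4 and -0.09. Both potassium channel subunits were below the floor. The median over all genes was -0.03, with 55.8% of them below 0 and 1.08% past 2-fold.

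Related genes outside the naming rule included TAP1, whose difference was larger than that of any member reported here that was above the floor on both arrays. TAP1 and TAP2 encode the ABC transporter that brings peptides to class I molecules in the endoplasmic reticulum. TAP1 had signals of 3694 and 5878 (0.66, 1.58-fold higher) and TAP2 had 3946 and 4445 (0.16). CFTR, the chloride channel of the superfamily, was at 32.5 on HL60, just above the floor, and 5.91 on R-HL60, with no bound above 1-fold. As subfamilies were taken by name, TAP1, TAP2 and CFTR enter no subfamily value above. Of the 16 partner genes 14 were measured, 0 past 2-fold, with a median of -0.14, 4 above 0 and 10 below. Over all genes 1.08% were past 2-fold and 55.8% were below 0, with a median of -0.03. In brightness bins 7 to 10 of 10 the median of all genes was -0.05 to -0.07. TAPBP, which tethers class I molecules to the TAP transporter, had the largest difference among them, from 3669 to 6101 (0.73, 1.65-fold higher). The peroxisomal partner PEX19 was at -0.06 and the cobalamin partner LMBRD1 at -0.23.

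Transcription factors and receptors that act on ABC genes were also close to equal. Of 20 regulators 17 were measured, 0 past 2-fold, 3 above and 14 below 0, with a median of -0.07. Of all genes, 55.8% were below 0. The largest difference was that of the lipid-sensing receptor PPARA, from 166 to 134 (-0.32). The oxysterol receptor NR1H3, which drives ABCA1 and ABCG1, was at 1644 and 1637 (-0.01), and the drug-sensing receptor NR1I2 was below the floor. Of 16 other drug transporters 11 were measured, 0 past 2-fold, with a median of -0.02. The nucleoside carrier SLC28A1 had the largest difference, from 70.8 to 47.9 (-0.57), and the cytarabine carrier SLC29A1 was at 0.01.

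**Figure D5:**
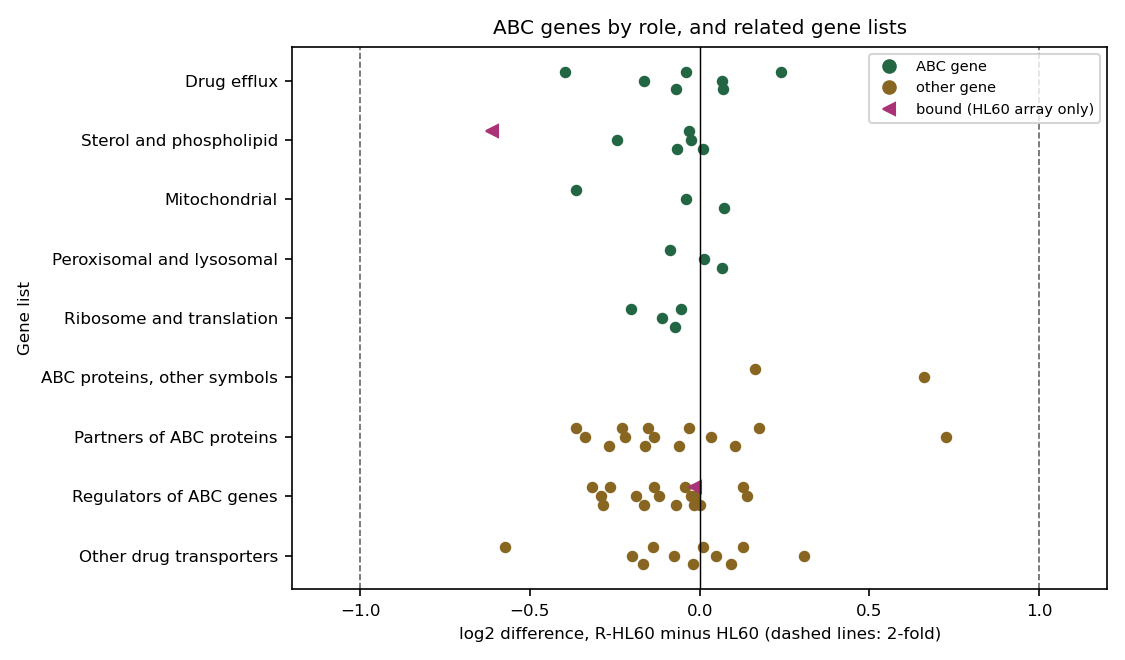
log2 difference (R-HL60 minus HL60) of each measured gene in 5 role lists of ABC genes (green) and 4 lists of related genes (brown), with bounds as triangles and dashed lines at 2-fold. TAP1 at 0.66 and TAPBP at 0.73 lie furthest to the right, and CFTR, which has no bound, is not drawn.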

How the data were processed

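Total RNA of each line was labelled with Cy3 and read on 1 one-colour array, per the labels' protocols, and Agilent Feature Extraction 10.7.3.1 was used, per the submitters' processing notes. The deposited files give 1 linear intensity per probe with a gene name. The authors' table of normalized intensities, whose sorted values lay within 1.06% of the rank means of both arrays, was an alternative. For the scanner column, the background treatment and the authors' normalization, the method was not given in the sources used here.

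Signals were divided by the array's 75th percentile and taken to log2. Without detection flags, each array's median signal was taken as its floor. The probe with the highest mean stood for its gene. A gene above the floor on 1 array has a bound against the higher of the floor and its own value there. Of 43317 names, 1567 older symbols were updated through a RefSeq table (GRCh38.p14). Membership used the files' own names. Of the genes that match the naming rule, 2 are not reported here and enter no count or list of ABC genes.

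With 1 array per line no test, SE or p-value was computed, and the number of arrays limits the precision. The members and lists were chosen with earlier results of these data known. Every measured member could be named, and from other lists the genes past 2-fold or the one with the largest difference; TAP2, CFTR, PEX19, LMBRD1, NR1H3, NR1I2 and SLC29A1 were added after their values were seen. The steps were tested on simulated data, with known changes larger than 2-fold put into genes well above the floor. Recovery of smaller changes, of changes in dim genes and of bounds was not tested. Python 3.11.15, numpy 2.4.6, pandas 2.3.3, statsmodels 0.14.6 and matplotlib 3.10.9 were used.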

Additional observations from a re-analysis of the deposited data

How the results depend on the processing

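Quantile normalization, a median shift, loess on brightness, the authors' normalized table, 50 units added to each signal, a floor at the 40th or the 60th percentile, no floor, the mean of all probes, genes above the floor on both arrays, and pseudogenes left out were tried. Of 94 alternative values for the superfamily and its subfamilies, 93 stayed within the probe-to-probe SD of 0.19 or at the same count. The exception was the threshold of 1.5-fold, at which 1 ABC gene, ABCG5, was counted. The count past 2-fold was 0 in each other setting, 3-fold included. Without a floor it was 0 of 47 genes, against 8.87% of all 43270 genes. That count takes in the 21 ABC genes below the floor on both arrays, whose signals are otherwise not counted as measured. The superfamily median ran from -0.14 to -0.01. The medians of subfamilies A, B, C, D, F and G lay below 0 in some settings and above it in others, so only that of ABCE1 had 1 sign, from -0.20 to -0.03. Of 242 values for single genes 13 moved by more than 0.19. They belonged to ABCG5, ABCA1, ABCB8, ABCC2, ABCC6, ABCA2, ABCC10, ABCC5 and ABCD4, and 10 of them came from another probe or the mean of probes. ABCC2 was -0.04 in the mean of probes, which takes in its second probe, below the floor on both arrays. ABCG5 had no value with the floor at the 60th percentile, and was -0.85 with the floor at the 40th percentile. No paired analysis was possible because each group has 1 array and the result comes from no test.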

Other observations

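Antisense names of the family were left out of the members. ABCC5-AS1 had signals of 358 on HL60 and 375 on R-HL60, a log2 difference of 0.06, and ABCA9-AS1 was below the floor on both arrays.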
